A study of Mus musculus with 3 samples.

Results

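Matrix vesicles (MVs) of MC3T3-E1 cells, an established mouse osteoblastic line, were profiled on 1 miRNA array for each of 3 isolations, and 4 miRNAs stood out for carrying nearly the same signal on every array. These were mmu-miR-1931, mmu-miR-1927, mmu-miR-1249-3p and mmu-miR-504-3p, 4 of the 84 mouse miRNAs detected in all 3 isolations and of the 1079 on the array. They were chosen by their own signals, as miRNAs with an SD of the unshifted log2 signal of about 0.25 or less over the 3 arrays, so their spread is a description and was not tested. In the deposited files a strict SD of 0.25 or less was met by 4 of the 84 miRNAs (4.76%), of which 3 are members, namely miR-1931, miR-1249-3p and miR-1927. The other was miR-5119 with an SD of 0.245, and miR-504-3p lay just above the limit with 0.255, as did miR-3101-3p with 0.255. The next miRNAs outside were miR-296-5p and miR-125a-3p, with SDs of 0.284 and 0.286. The name "steady" holds for signals as deposited. After each array was centred on its median, the 4 members were at places 64 to 77 of 84 from the smallest spread to the largest.

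The 3 arrays form a single group. Parent cells, other treatments and other genotypes were not analysed here. The cells were plated at 3000 cells/cm2 in osteogenic medium and MVs were released from the deposited extracellular matrix with 500 units/mL collagenase and collected by ultracentrifugation. The labels mention β-glycerophosphate in the cultures, whereas the methods describe MVs from cultures without it. The arrays therefore represent vesicles of 1 cell line in culture. The methods describe 3 independent extractions of the miRNAs, which are called isolations here. The sources used here do not say whether the vesicles were collected separately for each, or came from separate platings. From each isolation 100 ng of total RNA was labeled with Cy3. In isolation 1, 86 mouse miRNAs were detected, compared with 179 and 164 in isolations 2 and 3, and the median log2 signal of the 84 shared miRNAs was 4.89, 6.43 and 6.19, so isolation 1 stands apart and is named beside the results it touches. Of 9 miRNAs listed for mesenchymal cells, 6 were detected in all isolations and miR-199a-5p in isolations 2 and 3, and the signals of those detected on an array summed to 103.1, 1414 and 1048 in isolations 1, 2 and 3. Those not detected in any isolation were miR-143-3p and miR-145a-5p. None of 5 leukocyte, 1 liver, 2 neuron and 2 measured red blood cell miRNAs was detected, and of 3 muscle miRNAs only miR-206-3p was. Over the whole array 180 of 1079 mouse miRNAs were detected in at least 1 isolation, so most were not. The part of the differences between isolations in the members' spread was not tested.

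miRNAs are short RNAs that guide Argonaute proteins to messenger RNAs, mostly through the seed, the stretch of bases 2 to 8. They are cut from a hairpin precursor, and either arm of the hairpin can give a mature miRNA. MVs bud from osteoblasts into the unmineralized bone matrix, where mineral formation starts, and they carry miRNAs as other extracellular vesicles do. The opposite arm of the miR-504 hairpin, miR-504-5p, is known to repress p53. miR-21a-5p, a widely expressed miRNA of many growing cells, and miR-199a-3p, a product of the skeletal Dnm3os transcript, served for comparison as the most variable miRNAs of these arrays.

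Mature sequences were taken from RefSeq (GRCm38.p6), in which 2 of the 4 members have an entry, miR-1931 and miR-1249-3p. They are shown with the opposite arm of the miR-504 hairpin and the variable miRNAs, since shared seeds would group miRNAs by target. Capitals mark the seed.
miR-1931: aUGCAAGGgcuggugcgauggc
miR-1249-3p: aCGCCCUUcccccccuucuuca
miR-504-5p: aGACCCUGgucugcacucuauc
miR-21a-5p: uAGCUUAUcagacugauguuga
miR-199a-3p: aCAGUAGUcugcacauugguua

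Each of these 5 seeds was unique among the 867 mouse miRNAs of the array with a mature entry. The seeds of miR-1927 and miR-504-3p were not compared. miR-1931 and miR-1249-3p both had a GC content of 63.6%, above the 36.4% of miR-21a-5p and the 40.9% of miR-199a-3p. The GC content of all 84 miRNAs was not compared, because only 56 of them (66.7%) have an entry. miR-1249-3p holds a run of 7 C. The longest stretch that miR-1931 shares with another miRNA of the array is 10 bases, with miR-300-3p, and for miR-1249-3p it is 8 bases, shared with miR-296-5p and 3 others. Signal from other RNAs on these features was not tested.

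The hairpins of all 4 members are listed in RefSeq and are shown because they give the sequence context of the members without a mature entry. Capitals mark the listed mature miRNA, which is the member itself in Mir1931 and Mir1249 and the opposite arm, miR-504-5p, in Mir504. Mir1927 has no listed mature miRNA and is in lower case.
Mir1931, chr10:93162785-93162903, plus strand: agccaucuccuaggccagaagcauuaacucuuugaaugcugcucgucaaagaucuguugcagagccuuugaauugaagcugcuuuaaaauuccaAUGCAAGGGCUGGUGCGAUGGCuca
Mir1927, chr1:160295864-160295972, minus strand: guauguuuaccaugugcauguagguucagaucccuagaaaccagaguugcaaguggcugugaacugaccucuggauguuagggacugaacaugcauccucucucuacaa
Mir1249, chr15:84951526-84951623, minus strand: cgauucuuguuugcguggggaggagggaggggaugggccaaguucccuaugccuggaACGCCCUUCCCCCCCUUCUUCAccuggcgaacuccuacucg
Mir504, chrX:59097658-59097736, minus strand: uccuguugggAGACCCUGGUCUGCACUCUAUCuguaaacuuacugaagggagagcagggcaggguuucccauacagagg

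The 4 genes lie on 4 different chromosomes, so they form no cluster. In the RefSeq gene table each lies within the span of a protein-coding gene. Mir1931 is within Cdk17, a cyclin-dependent kinase gene, Mir1927 within Rabgap1l, a gene of a Rab GTPase-activating protein, Mir504 within Fgf13, a gene of the fibroblast growth factor homologous factors, and Mir1249 within 5031439G07Rik. Exons and introns of these host genes were not used here. The opposite arms of the hairpins with 2 features on the array, miR-504-5p and miR-1249-5p, were not detected in any of the 3 isolations. For these 2 genes signal was therefore seen on the 3p feature alone, and the 5p arm has only a bound below the detection limit.

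The members fell into a dim pair and a brighter pair. miR-1931 had total gene signals of 24.5, 27.2 and 22.6 in isolations 1, 2 and 3, with reported errors of 3.87, 4.05 and 3.80. Isolation 2 was the highest and isolation 3 the lowest, 1.20 times apart. Its mean log2 signal was 4.63 ± 0.13 (SD, n = 3), the smallest SD of the 84 miRNAs.

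miR-1249-3p had signals of 24.2, 32.0 and 29.1, with errors of 3.84, 4.23 and 4.01. Isolation 1 was the lowest and isolation 2 the highest, 1.32 times apart. Its mean log2 signal was 4.82 ± 0.21 (SD, n = 3), the second smallest SD.

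miR-1927 had signals of 132.0, 126.0 and 168.6, with errors of 9.97, 9.62 and 12.4. Isolations 1 and 2 were close and isolation 3 was above both, 1.34 times the lowest. Its mean log2 signal was 7.14 ± 0.23 (SD, n = 3), at place 3 of 84.

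miR-504-3p had signals of 147.3, 113.6 and 159.1, with errors of 11.1, 8.84 and 11.8. Isolation 2 was the lowest, and isolation 3 was 1.40 times as high. Its mean log2 signal was 7.11 ± 0.255 (SD, n = 3), at place 6 of 84 behind miR-5119 and miR-3101-3p.

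The most variable miRNAs ran otherwise. miR-199a-3p had signals of 11.8, 268.0 and 210.0 and an SD of 2.50 log2 units, and miR-21a-5p had 10.1, 204.5 and 165.7 and an SD of 2.42. Both were far lower in isolation 1 than in the others. The highest signal was 22.6 times the lowest for miR-199a-3p and 20.2 times for miR-21a-5p, compared with 1.20 to 1.40 times for the members.

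**Figure D1:**
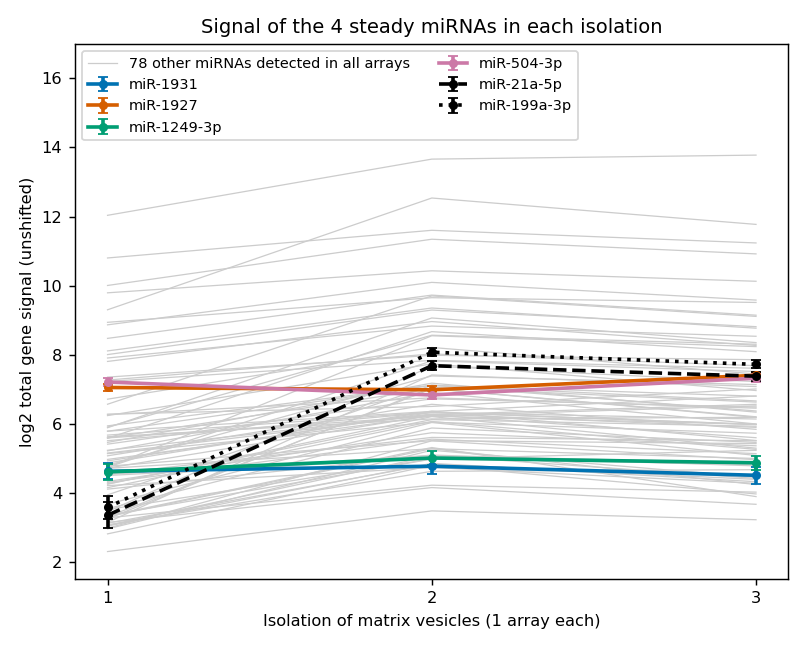
Unshifted log2 total gene signal (vertical axis) on the array of each isolation (horizontal axis). Colored lines are the 4 members, black dashed and dotted lines are miR-21a-5p and miR-199a-3p, grey lines are the 78 other miRNAs detected in all isolations, and bars are the error reported within the array, converted to log2 units. Lines join the values of 1 miRNA and do not mean an order of the isolations. The members run nearly level, from 4.50 upward for the dim pair and from 6.83 to 7.40 for the brighter pair, while the grey lines and both black lines are mostly lower in isolation 1.

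The median SD was 0.22 log2 units for the 4 members and 0.75 for the 80 other miRNAs detected in all isolations, whose lower quartile was 0.50. As a coefficient of variation of the linear signal, the members ranged from 9.19% to 16.9%, and the others from 17.2% to 84.6%. This measure rests on the same signals that chose the members, so nothing is read from it. With 3 arrays an SD is poorly known. The 95% interval of the SD, assuming normal values, reached from 0.069 to 0.830 for miR-1931 and from 0.133 to 1.60 for miR-504-3p, whereas it started at 1.26 for miR-21a-5p and at 1.30 for miR-199a-3p. The order of the members among themselves and the limit of 0.25 are therefore not resolved by these arrays, and the intervals take no account of the selection among 84 miRNAs.

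The level of the members lay within the range of the others, from 2.99 to 13.2. Their mean log2 signals had a median of 5.97, and those of the 80 others a median of 5.93. The members' median falls between the pairs, and the dim pair lay below the others' lower quartile of 4.98. miR-1927 and miR-504-3p were at places 22 and 23 of the 84 by mean log2 signal, and miR-1249-3p and miR-1931 at places 65 and 69. Probes differ in their response, so these are places of signals and not of RNA amounts. Across the 84 miRNAs the mean log2 signal and its SD had a Spearman's rho of -0.06, given as a description because the miRNAs share the same 3 arrays.

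The error that the scanner software reports for each signal was not used to choose the members. As a share of the signal it was 15.8%, 14.9% and 16.8% for miR-1931 and 15.9%, 13.2% and 13.8% for miR-1249-3p in isolations 1, 2 and 3. For miR-1927 it was 7.55%, 7.64% and 7.37%, and for miR-504-3p 7.50%, 7.78% and 7.42%. The brighter pair thus had about the same relative error on all arrays and the dim pair a higher one. The median of the members' mean errors was 10.9%, and that of the 80 others was 10.1%, so a small relative error is not shared by the steady miRNAs. Relative error was higher for dim miRNAs in general (rho = -0.84 with the mean log2 signal across the 84 miRNAs, as a description).

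The relative error of the members kept its size from array to array. In isolation 1 the median error was 11.7% for the members and 13.1% for the others, in isolation 2 it was 10.5% and 8.55%, and in isolation 3 it was 10.6% and 8.96%. For miR-21a-5p the error was 26.0% of the signal in isolation 1 and 8.88% and 9.06% in isolations 2 and 3, and for miR-199a-3p it was 22.8%, 7.87% and 7.99%. The error moved with the signal, so this comparison is not independent of how the members were chosen.

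**Figure D2:**
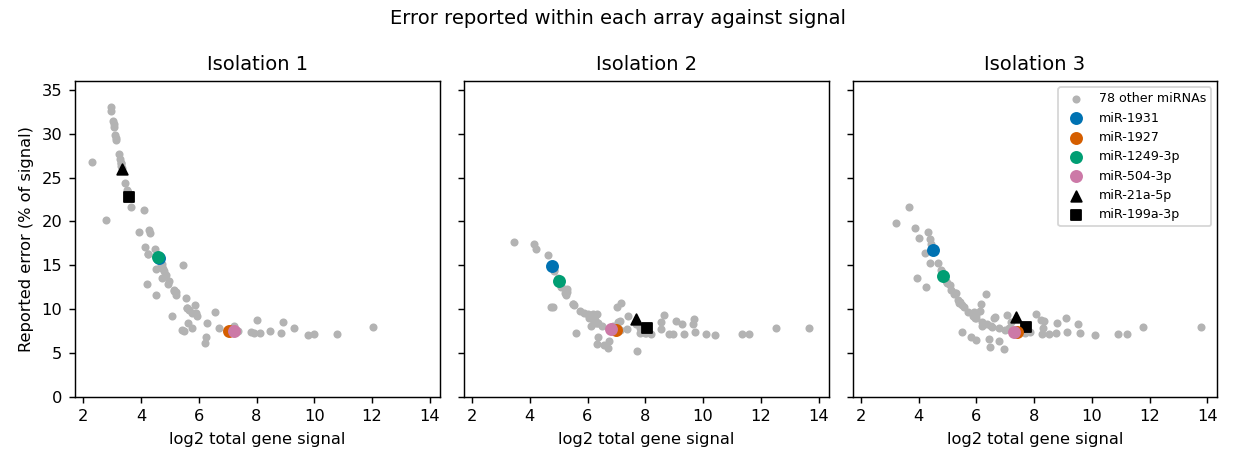
Reported error as a percentage of the signal (vertical axis) against log2 total gene signal (horizontal axis), with 1 panel for each isolation. Colored circles are the 4 members, black symbols are miR-21a-5p and miR-199a-3p, and grey points are the 78 other miRNAs. The members keep their places in all panels, near 7.5% for miR-1927 and miR-504-3p and between 13.2% and 16.8% for miR-1249-3p and miR-1931, while both black symbols lie at 22.8% and 26.0% in isolation 1 only.

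Set against this error, the unshifted spread of the dim pair was no larger than the reading error of a single array. The root mean square error in log2 units was 0.23 for miR-1931 and 0.21 for miR-1249-3p, and their SDs were 0.58 and 0.99 times as large. Of the 84 miRNAs, 2 (2.38%) had an SD below the reported error, and both were these members. The SD of miR-1927 was 2.08 times its reported error of 0.11, and that of miR-504-3p was 2.33 times its error of 0.11. The median ratio was 1.54 for the members and 4.70 for the 80 others, and it was 10.1 for miR-21a-5p and 11.8 for miR-199a-3p. With isolation 1, 2 or 3 left out the members' median ratio was 1.78, 0.80 or 0.91. After each array was centred on its median the ratio was 3.55 for miR-1931 and 3.04 for miR-1249-3p, with medians of 5.50 for the members and 2.77 for the others, so the members were then above the others. The ratio contains the SD that chose the members, so it is a description.

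The members had small differences between isolation 1 and the other arrays. These differences come from the same signals that chose the members, so they follow from the choice and are a description. From isolation 1 to isolation 2 the log2 signal of the 80 others was higher by a median of 1.42, with a range from 0.22 to 4.50. The same difference was -0.38 for miR-504-3p, -0.07 for miR-1927, 0.15 for miR-1931 and 0.40 for miR-1249-3p. Signals lower in isolation 2 than in isolation 1 were found for 2 of the 84 miRNAs (2.38%), miR-504-3p and miR-1927, the latter by less than its reported error. Isolation 3 minus isolation 1 was -0.12 for miR-1931, 0.11 for miR-504-3p, 0.27 for miR-1249-3p and 0.35 for miR-1927, and its median over the others was 0.90. Apart from miR-1931, only miR-3077-5p was lower in isolation 3 than in isolation 1, by -0.11.

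Between isolations 2 and 3 the members were not exceptional. The SD of these 2 arrays alone had a median of 0.24 for the members and 0.28 for the others, and 38 of the 84 miRNAs, 2 of them members, were at 0.25 or below. miR-1249-3p was at place 9 with 0.10, miR-1931 at place 22 with 0.19, miR-1927 at place 45 with 0.30 and miR-504-3p at place 55 with 0.34. On these 2 arrays miR-21a-5p (0.21) and miR-199a-3p (0.25) had smaller SDs than miR-1927 and miR-504-3p.

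The order of the arrays differed between the members. miR-1927 and miR-504-3p both had their lowest signal in isolation 2 and were higher in isolation 3 than in isolation 2, by 0.42 and 0.49 log2 units. For miR-1927 isolation 2 minus isolation 1 was only -0.07, smaller than its reported error of 0.11 in log2 units. Which of these 2 isolations was lower for miR-1927 is therefore not resolved. In all, 10 of the 84 miRNAs were higher in isolation 3 than in isolation 2. miR-1931 and miR-1249-3p were highest in isolation 2, and isolation 3 minus isolation 2 was -0.26 and -0.14. Their SDs were no larger than their reported errors of 0.23 and 0.21 in log2 units, so their order is not resolved. The log2 ratio of miR-1927 to miR-504-3p was -0.16, 0.15 and 0.08 in isolations 1, 2 and 3 (SD 0.16), and that of miR-1931 to miR-1249-3p was 0.02, -0.24 and -0.36 (SD 0.19). The ratios between a member of one pair and a member of the other had SDs of 0.30 to 0.41.

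By the Euclidean distance over the 3 log2 signals, the profile nearest to miR-1927 was that of miR-504-3p (0.23), and the reverse was true as well. The next nearest were miR-494-3p for miR-1927 (0.89) and miR-500-3p for miR-504-3p (1.04). The dim pair had neighbors that were not members. miR-3101-3p was at a distance of 0.12 from miR-1249-3p, with signals of 22.5, 31.9 and 28.0, and miR-296-5p at 0.31. The nearest to miR-1931 were miR-3077-5p (0.34) and miR-3101-3p (0.40). The distance uses levels as well as shape, over 3 arrays only.

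**Figure D3:**
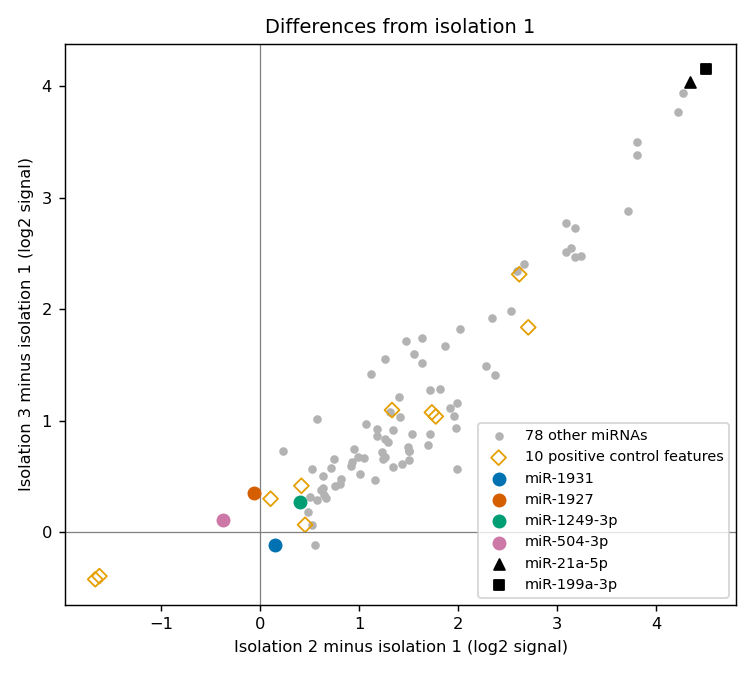
Difference in log2 signal from isolation 1 for isolation 2 (horizontal axis) and isolation 3 (vertical axis), with 0 marked by lines. Colored circles are the members, black symbols are miR-21a-5p and miR-199a-3p, grey points are the 78 other miRNAs and open diamonds are the 10 positive control features detected on all arrays. The members lie around the origin, miR-21a-5p and miR-199a-3p lie above 4 on both axes, and 2 control features lie near -1.6 on the horizontal axis.

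The control features of the arrays give values from outside the mouse miRNAs. Of the 14 positive control features 10 were detected on all arrays, and 3 of these had an SD of 0.25 or less. These were dmr_285 with signals of 146.9, 157.8 and 180.8 (SD 0.15), dmr_31a with 46.5, 61.9 and 62.0 (SD 0.24) and miRNABrightCorner30 with 710.7, 972.1 and 744.1 (SD 0.24). The others had SDs up to 1.43. Their roles are not given in the sources used here, and their bearing on the members was not tested.

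Relative to the other miRNAs of the same array, the members were not constant. Centring takes off the array medians of 4.89, 6.43 and 6.19, so a nearly level signal comes out highest in isolation 1 by construction. The centred values of the members are therefore a description. After each array was centred on its median over the 84 miRNAs, the values of miR-504-3p were 2.31, 0.40 and 1.13 in isolations 1, 2 and 3, and those of miR-1927 were 2.16, 0.55 and 1.21. For miR-1931 they were -0.27, -1.66 and -1.69, and for miR-1249-3p -0.29, -1.43 and -1.33. Isolation 1 was the highest for each member, by 0.95 to 1.92 log2 units over the other isolations. The SD of the centred values was 0.63 for miR-1249-3p, 0.81 for miR-1927, 0.81 for miR-1931 and 0.97 for miR-504-3p, and its median was 0.39 for the 80 others. None of the 4 members was among the 16 miRNAs whose centred SD was 0.25 or less. miR-21a-5p and miR-199a-3p stayed the most variable on this scale too, with 1.60 and 1.68, but with isolation 1 as the lowest.

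**Figure D4:**
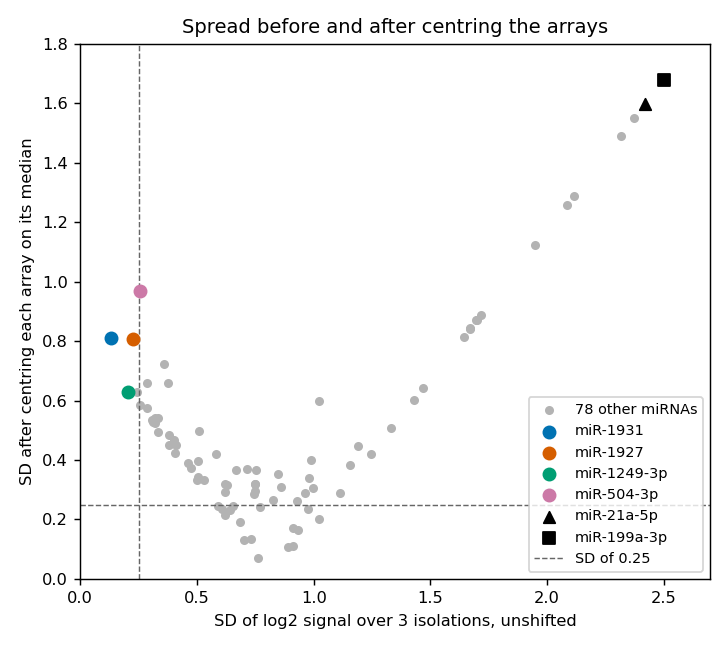
SD over the 3 isolations of the log2 signal as deposited (horizontal axis) and after centring each array on its median (vertical axis), for the 84 miRNAs detected in all isolations. Dashed lines mark an SD of 0.25. The members lie at the left edge with centred SDs of 0.63 to 0.97, the 16 miRNAs with a centred SD of 0.25 or less all lie to the right of the unshifted limit, and miR-21a-5p and miR-199a-3p lie highest on both axes.

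Shares and places of the signal within an array show the same in other units. A nearly level signal takes a smaller share where the summed signal is larger, so these values are no separate result. miR-504-3p took 1.09% of the summed signal of detected mouse miRNAs in isolation 1, but 0.267% and 0.452% in the others, and miR-1927 took 0.974%, 0.297% and 0.479%. miR-1931 took 0.181%, 0.064% and 0.064%, and miR-1249-3p 0.178%, 0.075% and 0.083%. All 4 members had a lower share in isolations 2 and 3 than in isolation 1, as did 48 of the 84 miRNAs. The summed signal itself was 13558, 42478 and 35179. By signal, miR-504-3p was at places 16, 40 and 26 of the mouse miRNAs in isolations 1, 2 and 3, and miR-1927 at places 17, 36 and 24. miR-1931 was at places 50, 107 and 96, and miR-1249-3p at 51, 95 and 86. The lists behind these places hold 86 detected miRNAs in isolation 1 and 179 and 164 in the others. In contrast, miR-21a-5p was at places 68, 25 and 25, and miR-199a-3p at 64, 19 and 19.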

How the data were processed

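MVs of 3 isolations (1 group, n = 3) were measured on SurePrint G3 mouse miRNA arrays, 1 color. The authors deposited, for each array, the total gene signal and its error as intensity on a linear scale, with a detection call, from Agilent Feature Extraction 10.10.1.1 according to the submitters' processing notes. No normalization between arrays was applied to the deposited values, and undetected features carry a signal of 0.1 and an error of 1. No signal was identical between arrays. Replicate numbers are those of the sample titles.

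Log2 signals were calculated without a shift, and SDs over 3 arrays. Errors were divided by the signal, and converted to log2 units as this ratio over ln 2. The members and the lists were chosen with earlier results of these data known, and no test was run, because there is 1 group and the members were chosen by its signals. Other miRNAs named are the most variable ones, the next by SD, the 2 nearest profiles of each member, the opposite arms and those with the lowest difference between isolations 2 and 1. Alternatives were 4 scalings, other limits and filters, and each isolation left out. The functions were checked on made-up arrays with known spreads. The number of arrays limits the precision. Python 3.11.15, numpy 2.4.6, pandas 2.3.3, scipy 1.17.1 and matplotlib 3.10.9 were used, and host genes and sequences are from RefSeq (GRCm38.p6), whereas the array tables name no assembly.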

Additional observations from a re-analysis of the deposited data

Results flagged for a closer look

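The control features detected on the arrays were not part of the comparisons among mouse miRNAs and are given here because they carried a signal while all 7 negative control features were undetected. Of the 10 positive control features detected in all isolations, 3 had an SD of 0.25 or less, as given above. The features dmr_3 and dmr_6 were lower in isolation 2 than in isolation 1, by -1.63 and -1.67 log2 units, with signals of 11815, 3830 and 8989 for dmr_3 and 2290, 720.9 and 1708 for dmr_6. Isolation 2 was thus the lowest for both, while the other 8 control features were higher in isolation 2 than in isolation 1. It was also the lowest for miR-504-3p and miR-1927, but their differences from isolation 1 were far smaller, -0.38 and -0.07 log2 units. That of miR-1927 was smaller than its reported error. No cause was tested.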

How the results depend on the processing

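The members' median SD, 0.22 unshifted, was 0.81 with median centring, 0.84 with a shift by the 75th percentile, 4.45 with a shift by the 90th percentile over all mouse miRNAs and 0.84 with quantile normalization, and its ratio to the reported error, 1.54, became 5.50, 5.75, 30.8 and 5.64. The number of miRNAs with an SD of 0.25 or less, 4, became 16, 14, 0 and 19, and in none of these settings did it include a member. In the same order, the members' median difference of isolation 2 from isolation 1, 0.04, became -1.50, -1.59, -7.99 and -1.61, and that of isolation 3, 0.19, became -1.11, -1.11, -7.32 and -1.09. In isolation 1 the 90th percentile equals the value of undetected features, which sets these numbers. Median centring moved the median level from 5.97 to 0.13 by construction, and quantile normalization gave 5.90.

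Limits of 0.20 and 0.30 gave 1 and 8 miRNAs, detection in at least 2 arrays gave 36 of 165, and a mean log2 signal of at least 5 left 2. Many of the 165 have an SD over 2 arrays only, which is unlike an SD over 3. Viral features added none. The members' median error, 10.9%, was 11.8% as the highest of the arrays and 10.9% for signals over 3 times their error.

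With each isolation left out, the members' median SD was 0.14 to 0.24. The number of miRNAs at 0.25 or less was 69 of 164 without isolation 1, 11 of 84 without isolation 2 and 4 of 85 without isolation 3. These counts rest on different sets and on SDs over 2 arrays, which are unlike an SD over 3. The ratio to the error was 1.78, 0.80 and 0.91 without isolations 1, 2 and 3. The level was 5.90 to 6.001 and the error 10.6% to 11.2%. The differences between isolations lose their value, or cannot change, when an isolation is left out. With miR-5119 in place of miR-504-3p, a setting chosen after seeing the data, the level was 5.65 and the difference of isolation 2 from isolation 1 was 0.28, while spread, ratio and error did not change by more than 1.5 times. No paired analysis was possible because only 1 group exists. Where no construction is named here or above, the cause was not tested.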
